A study of Rattus norvegicus with 5 samples.

Results

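Nitric oxide synthases make nitric oxide from arginine, and a small set of proteins binds them, removes their inhibitor or competes for their substrate. The 7 genes described here are the synthases Nos1, Nos2 and Nos3, the Nos3-binding protein Cav1, the inhibitor-removing enzymes Ddah1 and Ddah2, and the mitochondrial arginase Arg2. They were chosen by name and function, though with earlier results of these data known. The choice was out of 14506 rat genes with a named probe set among 29215 probe sets. Each of the 7 genes had exactly 1 probe set with its symbol alone.

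The samples were kidney cells labelled proximal tubular, isolated from Sprague-Dawley rats with type I diabetes and kept in the absence or presence of C-peptide, which is split off when insulin forms from proinsulin. Incubation lasted 2 h, and total RNA was hybridised to 1 whole-transcript array a sample, 3 for C-peptide (animals 1 to 3) and 2 untreated (animals 1 and 2). The comparison addresses RNA levels after 2 h with C-peptide in cells that all came from diabetic rats. No non-diabetic group was among the arrays analysed here. The sources used here do not give how diabetes was induced, the C-peptide dose, the way the cells were isolated, or whether the same-numbered animals of the groups are the same rat.

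As background, Nos3 is the endothelial synthase, active at rest and raised further by calcium and phosphorylation. Nos1 is the neuronal synthase, in the kidney best known from the macula densa, and Nos2 is the inducible synthase, transcribed in response to cytokines and bacterial products and largely independent of calcium. Nitric oxide activates soluble guanylate cyclase, and the cyclic GMP formed relaxes vessels. In the kidney it is known for effects on blood flow and on tubular sodium transport.

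The values below are hybridisation intensities after quantile normalisation across the 5 arrays, and each difference is the log2 difference, C-peptide minus untreated, of intensity + 16, fitted with limma over all probe sets. Because intensity also depends on the probes, no level is compared between genes, and the share of probe sets that are dimmer is given only to show how near a probe set lies to the low end of the array. No probe set passed an adjusted p of 0.05 (0 of 29215, or 0%). At an unadjusted 0.05, 3317 probe sets (11.4%) passed, 1477 (5.06%) with higher and 1840 (6.3%) with lower values under C-peptide. The unadjusted count was 2058 in the deposited intensities and 1765 without untreated animal 1, and the adjusted one reached 386 where dim probe sets were left out. The median difference of all probe sets was 0.02.

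Among the 7 genes, Nos3 stood lowest under C-peptide, 2.06-fold below its untreated value. The other differences were smaller than 0.5 on the log2 scale. Arg2, Ddah2 and Nos1 were higher on all C-peptide arrays than on both untreated arrays, Nos2 was lower on all of them, and the groups overlapped for Cav1 and Ddah1. None of the 7 passed the adjusted threshold, as none of the other probe sets did. At the unadjusted 0.05, 2 of the 7 passed, Nos3 lower and Arg2 higher; 1 passed in the deposited intensities, and 1 on leaving out either untreated animal, or animal 1 or 3 of those given C-peptide. Groups without overlap are common with 3 arrays against 2: 4715 probe sets (16.1%) were higher and 4041 (13.8%) lower on every C-peptide array, beside 3 higher and 2 lower among the 7 genes (only the 2 lower ones, Nos2 and Nos3, in the deposited intensities).

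**Figure D1:**
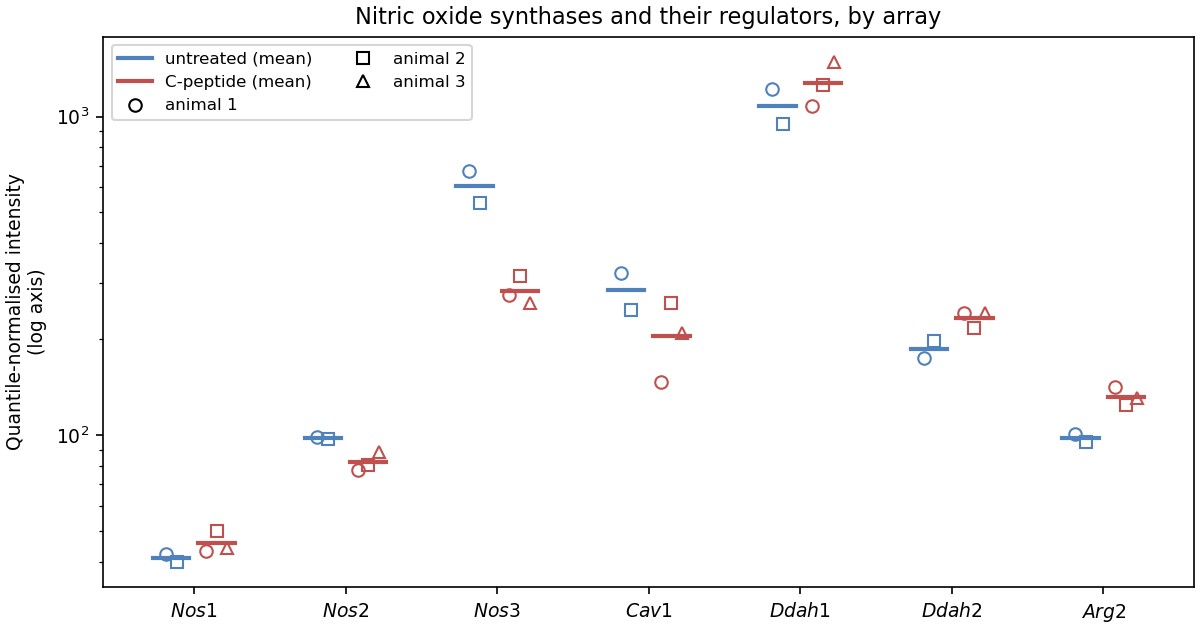
Quantile-normalised intensity (log axis) of each of the 7 genes on each of the 5 arrays, with untreated arrays in blue, C-peptide arrays in red, the animal number as the symbol and the group mean as a bar. The Nos3 points of the 3 C-peptide arrays lie at 261 to 316, below the untreated points at 535 and 676, while the Cav1 and Ddah1 points of the groups overlap.

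Nos3, the endothelial synthase, had intensities of 276, 316 and 261 under C-peptide (animals 1, 2 and 3 in order, here and below) and of 676 and 535 untreated (animals 1 and 2). Every C-peptide array was below both untreated arrays, and the gap between the groups was wider than the range within either. The means were 284 ± 28.8 (SD, n = 3) and 606 ± 99.7 (SD, n = 2). The difference was -1.05 ± 0.17 (SE), a 2.06-fold lower value with a 95% interval of -1.44 to -0.66, and an adjusted p = 0.110 by limma. Nos3 ranked 90 of 29215 probe sets by its p, and 0.698% of the probe sets had a lower difference. With each array left out in turn the difference lay between -1.20 and -0.89. It passed the adjusted threshold by limma where probe sets below the median intensity or without a single symbol were left out (adjusted p = 0.0190 and 0.0183). In these settings 386 probe sets, and 329 of 15310, passed. Nos3 did not pass on the deposited intensities (194, 361 and 252 under C-peptide, 723 and 577 untreated, adjusted p = 0.0764).

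The stretch before the Nos3 start is printed because Nos3 has the largest difference of the 7, and that of Ddah1 as a member of the set without the motifs. As background, Kruppel-like, Sp1, ETS and SOX factors are known regulators of endothelial genes. Both sequences are the 250 bases before the RefSeq start of build GRCr8, on the strand of the gene, with the motifs CACCC (Kruppel-like), GGGCGG (Sp1), GGAA (ETS) and ACAAT (SOX) in capitals, on either strand (a match on the other strand shows as the reverse complement). No matches overlapped. The Nos3 stretch is chr4:11706582-11706831, minus strand, and that of Ddah1 chr2:237327562-237327811, plus strand.
Nos3: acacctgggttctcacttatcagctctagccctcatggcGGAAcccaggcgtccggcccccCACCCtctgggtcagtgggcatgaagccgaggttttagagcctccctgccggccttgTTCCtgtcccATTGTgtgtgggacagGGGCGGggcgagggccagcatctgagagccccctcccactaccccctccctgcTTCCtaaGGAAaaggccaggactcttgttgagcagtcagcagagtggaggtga
Ddah1: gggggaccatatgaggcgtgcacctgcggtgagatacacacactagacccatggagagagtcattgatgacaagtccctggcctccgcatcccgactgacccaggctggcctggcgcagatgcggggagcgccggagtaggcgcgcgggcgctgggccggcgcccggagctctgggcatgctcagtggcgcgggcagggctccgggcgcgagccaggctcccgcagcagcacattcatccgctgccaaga

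The Nos3 stretch held 1 CACCC, 1 GGGCGG, 4 GGAA and 1 ACAAT, with the CACCC at 189 to 185 and the GGGCGG at 106 to 101 bases before the start. Of 33469 rat promoter stretches of this length, 49.2% held CACCC, 30.5% GGGCGG, 93.2% GGAA and 30% ACAAT. All 4 motifs stood together in 2.4%, and none of them, as in Ddah1, in 1.31%. The Nos1 stretch held 1 CACCC, 1 GGGCGG and 3 GGAA, and the stretches of the 2 Cav1 starts held 1 and 2 CACCC, 1 and 0 GGGCGG and 2 GGAA each, with no ACAAT in either gene. Matches of such short motifs describe the sequence and are not shown to be bound sites in these cells.

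Nos2, the inducible synthase, was measured at 77.6, 80.6 and 88.5 under C-peptide and at 98.4 and 96.9 untreated. The groups did not overlap, and the C-peptide arrays were the lower ones, also in the deposited intensities. The means were 82.3 ± 5.63 (SD, n = 3) and 97.6 ± 1.00 (SD, n = 2), a difference of -0.21 ± 0.14 (SE) with an adjusted p = 0.616 by limma. The interval of -0.53 to 0.11 holds 0, so a difference in Nos2 was not detectable with these arrays. Of all probe sets 52.0% were dimmer than that of Nos2.

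Nos1, the neuronal synthase, had intensities of 43.2, 50.2 and 44.3 under C-peptide and 42.3 and 39.9 untreated. Of all probe sets 32.0% were dimmer, and the groups were separated by less than 1 intensity unit between C-peptide animal 1 and untreated animal 1. The difference was 0.11 ± 0.14 (SE), with an interval of -0.21 to 0.44 and an adjusted p = 0.800 by limma. In the deposited intensities the groups overlapped. Markers of the macula densa and the thick ascending limb, the segment where Nos1 is best known, had a median difference of 0.06 over 8 measured genes, 4 below and 4 above 0. Their summed intensity was 10068 to 17768 under C-peptide and 12172 to 13256 untreated, so the groups overlapped in it.

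Cav1 encodes caveolin-1, the coat protein of caveolae that binds Nos3 and holds it inactive. Its intensities were 147, 259.6 and 209 under C-peptide and 322 and 247 untreated. C-peptide animal 2 lay above untreated animal 2, so the groups overlapped, and C-peptide animal 1 was lowest. The means were 205 ± 56.4 (SD, n = 3) and 285 ± 53.1 (SD, n = 2), and the difference of -0.47 ± 0.24 (SE) had an interval of -1.03 to 0.10 and an adjusted p = 0.516 by limma.

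Ddah1 and Ddah2 encode the dimethylarginine dimethylaminohydrolases, which break down asymmetric dimethylarginine, an inhibitor made within the cell that competes with arginine at the synthases. Ddah1 read 1082, 1257 and 1486 under C-peptide and 1217 and 947 untreated. C-peptide animal 1 fell between the untreated animals, and the difference of 0.23 ± 0.19 (SE) had an interval of -0.21 to 0.68 and an adjusted p = 0.701 by limma.

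Ddah2 read 241, 218 and 242 under C-peptide and 175 and 197 untreated. All C-peptide arrays were above both untreated ones after quantile normalisation, but not in the deposited intensities, where the groups overlapped. The means were 234 ± 13.8 (SD, n = 3) and 186 ± 15.9 (SD, n = 2). The difference was 0.31 ± 0.14 (SE), with an interval of -0.03 to 0.64 and an adjusted p = 0.469 by limma.

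Arg2 encodes the mitochondrial arginase, the form of the enzyme known from kidney, which turns arginine into ornithine and urea and so draws on the substrate of the synthases. Its intensities were 141, 124 and 131 under C-peptide and 100.5 and 95.3 untreated. The 3 C-peptide arrays were the higher ones without overlap, although again not in the deposited intensities. The means were 132 ± 8.63 (SD, n = 3) and 97.9 ± 3.68 (SD, n = 2), a 1.30-fold higher value under C-peptide. The difference of 0.38 ± 0.14 (SE) had an interval of 0.05 to 0.70, which leaves out 0, but an adjusted p = 0.382 by limma, and 93.0% of probe sets had a lower difference.

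**Figure D2:**
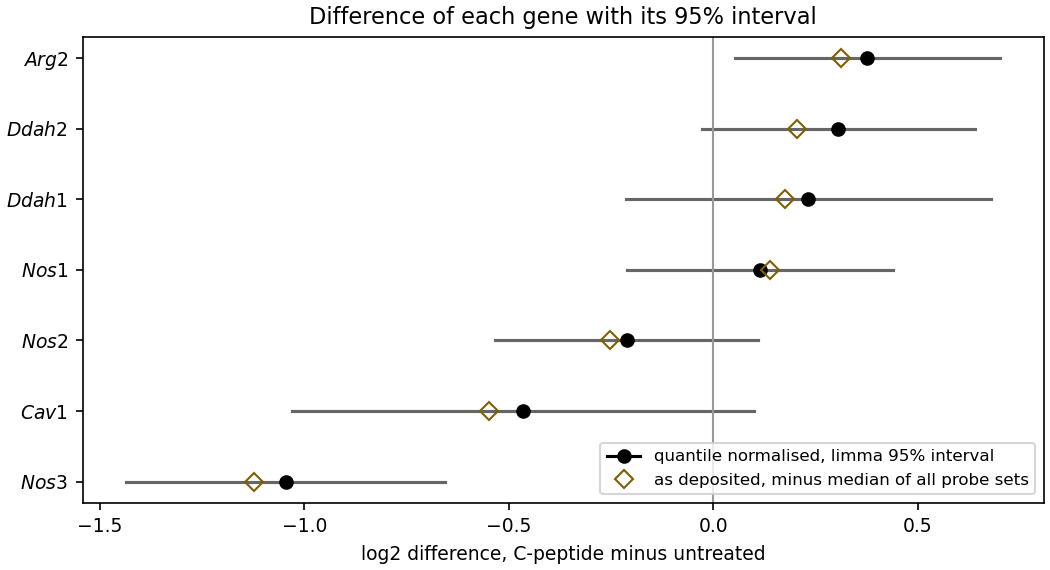
Log2 difference, C-peptide minus untreated, of each of the 7 genes after quantile normalisation (filled circles, with the 95% limma interval) and as deposited with the median of all probe sets taken off (open diamonds). The intervals of Nos3 and Arg2 lie on 1 side of 0, those of the other 5 genes hold 0, and each diamond lies on the same side of 0 as its circle.

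Markers of the vessel lining moved with Nos3 across the arrays. The marker lists of this and the other cell types were chosen with earlier results of these data known. Of 15 listed endothelial genes 13 had a probe set of their own, and all 13 differences were below 0, from -1.46 (Ehd3) to -0.11 (Plvap, whose groups overlapped and whose sign changed without untreated animal 1, without C-peptide animal 3 or with the animal number as a block), with a median of -1.14. At the unadjusted 0.05, 12 of the 13 passed, and 10 with untreated animal 1 left out. Their summed intensity was 9308 to 14546 under C-peptide and 22386 to 26247 untreated, and none of the markers was at 0 on any array. No detection calls were used, so these sums are a description of the intensities. Fewer endothelial cells and less RNA per endothelial cell cannot be told apart in such samples.

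Nos3 was also set against these markers on the same array. Its log2 value minus the mean log2 value of the 13 endothelial markers was -1.10, -1.42 and -1.06 under C-peptide and -1.19 and -1.24 untreated. The untreated values lay within the range of the C-peptide values. The group means of -1.19 ± 0.20 (SD, n = 3) and -1.22 ± 0.04 (SD, n = 2) differed by 0.02, with a two-sided exact permutation p = 1 over 10 arrangements, of which the smallest possible p is 0.1. Of the 13 markers, 10 had a lower difference than Nos3 and 3 a higher one.

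Cav1 followed the markers less closely. Its log2 value relative to the endothelial mean was -1.66 ± 0.29 (SD, n = 3) under C-peptide and -2.27 ± 0.06 (SD, n = 2) untreated, a difference of 0.60 with a two-sided exact permutation p = 0.2. C-peptide animal 2 had the highest endothelial mean of its group, at -0.05 around the average of the 5 arrays against -0.56 and -0.67 for animals 1 and 3. It also had the highest Nos3 and Cav1 intensities of the C-peptide arrays. The part of the endothelial markers in the Nos3 and Cav1 values was not tested beyond these differences.

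**Figure D3:**
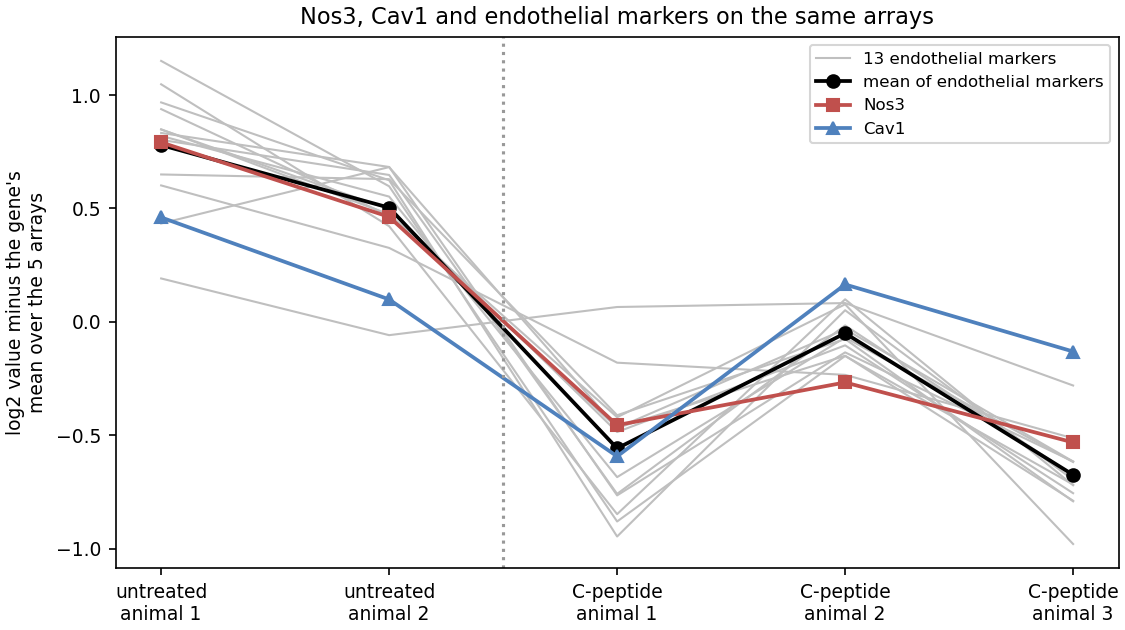
Log2 intensity on each of the 5 arrays, minus each gene's mean over the 5, for the 13 endothelial markers (grey lines), their mean (black circles), Nos3 (red squares) and Cav1 (blue triangles); lines only join the points of 1 gene. Nos3 lies at 0.79 and 0.46 untreated against 0.78 and 0.50 for the marker mean, and both lie below 0 on the C-peptide arrays, farthest apart for animal 2 (-0.27 against -0.05), whereas Cav1 is above 0 for C-peptide animal 2.

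Markers of other cell types that the preparation could hold were examined as well, and none passed the adjusted threshold in the fit described above. With only 1-symbol probe sets, 2 of 12 proximal tubule, 2 of 6 podocyte and 1 of 14 macrophage and leukocyte markers passed it. In that setting 329 of all 15310 probe sets passed. Nkg7 also passed in the deposited intensities (adjusted p = 0.0257 by limma). Proximal tubule markers, 12 of 12 measured, were all higher under C-peptide, from 0.30 (the bicarbonate transporter Slc4a4) to 0.97 (the organic anion transporter Slc22a6), with a median of 0.60 and 8 of the 12 past the unadjusted 0.05 (4 of 12 in the deposited intensities, and 4 of 12 without untreated animal 2). Their summed intensity was 23123 to 30698 under C-peptide and 16561 to 19909 untreated. Podocyte markers had a median of -0.50 over 6 measured genes, 3 of them past the unadjusted 0.05, from -1.32 (Podxl, which endothelium also expresses) to 0.11 (Nphs1). Macrophage and leukocyte markers had a median of -0.45, with 13 of 14 below 0 and 7 past the unadjusted 0.05, from -1.58 (Nkg7) to 0.14 (Cd79b); that count of 7 ranged from 2 to 9 when 1 array was left out.

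The summed intensity of the podocyte genes was 1536 to 2532 under C-peptide and 3889 to 4723 untreated. Podxl and Clic5 made up most of it, at 2699 and 1610 on untreated animal 1. The groups overlapped for Nphs1 and for Wt1. For the macrophage and leukocyte genes the sum was 3546 to 4859 under C-peptide and 5709 to 5964 untreated. Smooth muscle and stromal markers had a median of -0.09 over 9 genes, between -0.55 (Des) and 0.28 (Pdgfra). Distal tubule and collecting duct markers had a median of 0.23 over 10 genes, between -0.10 (Slc4a1, whose sign changed with the array weights and with the array left out) and 0.69 (Slc12a3). The macula densa and thick limb markers named with Nos1 ran from -0.23 (Ptger3) to 0.43 (Egf). None of these markers was at 0 on any array, and the part of the cell types in the values of Nos2, Arg2, Ddah1 and Ddah2 was not tested.

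The genes whose pattern over the 5 arrays was most like that of Nos3 were found among 8560 genes with a brightest probe set above the median intensity. Likeness was the root mean square difference between log2 values, each centred on its own mean. The nearest 5 were Socs3, an inhibitor of cytokine signalling (0.0484), the basement membrane gene Nid2 (0.0507), the ceramidase Acer2 (0.0599), the sphingosine-1-phosphate receptor S1pr1 (0.0719) and Kank3 (0.0750). Socs3, for example, read 876, 1029 and 792 under C-peptide and 2022 and 1562 untreated, so that C-peptide animal 2 was the highest of its group and untreated animal 1 the highest of all, as for Nos3. The differences of these 5 genes lay between -1.12 (S1pr1) and -0.98 (Socs3 and Acer2). Both this range and the order of the Socs3 arrays follow from the search, which picked genes by their likeness to Nos3.

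The same search gave Tom1, Cd28 and Hagh for Arg2, Adrb1, Coq9 and Ap4b1 for Ddah2, and Aqp2, Eif2ak3 and Grik5 for Ddah1. For Cav1 it gave Phf2, Gatad2b and Srgap2, and for Nos2 Fhl1, Tox4 and Zfp180. Nos1 was dimmer than the median probe set and was not searched. The nearest gene lay at 0.0102 from Arg2, 0.0209 from Ddah2, 0.0324 from Cav1 and 0.0392 from Ddah1. With 5 arrays, many genes can lie this close, and the order is a description of these arrays.

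The wider nitric oxide pathway was described by 7 lists of 63 genes, of which 58 had a probe set of their own. None of the 58 passed the adjusted threshold. At the unadjusted 0.05, 8 of the 58 were lower and 4 of the 58 higher. Both are larger shares than the 6.3% and 5.06% of all probe sets. With 1 array left out these counts ran from 5 to 10 lower and from 1 to 6 higher, and in the deposited intensities they were 8 and 0. Nos3 was not alone in passing the adjusted threshold in other settings. With only 1-symbol probe sets, Pde2a (adjusted p = 0.0164), Cavin3 (0.0207), Gch1 (0.0334) and Cavin2 (0.0384) passed by limma, as did 10 of the 13 endothelial markers. Of all 15310 probe sets in that setting 329 passed. The median difference of the 58 genes was 0.04, near the 0.02 of all probe sets. Without overlap, 13 of the 58 were lower and 15 of the 58 higher under C-peptide. These too are larger shares than the 13.8% and 16.1% of all probe sets. The lists were chosen with earlier results of these data known, so the shares are a description.

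Tetrahydrobiopterin is the cofactor without which the synthases do not couple arginine to oxygen. Of 5 measured genes of its supply 1 was lower past the unadjusted 0.05, Gch1, the GTP cyclohydrolase that starts its synthesis. Gch1 read 40.4, 32.9 and 28.6 under C-peptide and 68.2 and 71.8 untreated, a dim probe set whose groups lay well apart. Its difference was -0.79 ± 0.16 (SE), with an adjusted p = 0.141 by limma. The other 4 were above 0, with Gchfr, the feedback regulator of that enzyme, at 0.38 ± 0.19 (SE), the recycling enzyme Qdpr at 0.39 ± 0.18 (SE) and Pts at 0.13.

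Arginine supply and use was covered by 11 genes with a median of 0.23, 9 above 0 and 2 below. Oat, the mitochondrial aminotransferase that takes up the ornithine Arg2 makes, passed the unadjusted 0.05, with means of 1005 under C-peptide and 639.7 untreated, a difference of 0.63 ± 0.15 (SE) and an adjusted p = 0.192 by limma; in the deposited intensities it did not pass. Odc1, the ornithine decarboxylase, had a difference of 0.27, the arginine exporter Slc7a7 0.37, and Ass1, which rebuilds arginine from citrulline in the proximal tubule, 0.23 ± 0.15 (SE). With 1 array left out, Odc1 ran from 0.12 to 0.42, Slc7a7 from 0.23 to 0.62 and Ass1 from 0.11 to 0.35. Arg1, the cytosolic arginase, was at -0.22 and the arginine importer Slc7a1 at -0.14, both named after their values were seen. The proximal tubule markers given above, all of them higher under C-peptide by more than this list's median, stood beside these values.

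Methylarginines are made when arginine residues methylated by protein methyltransferases are released, and are removed by the Ddah enzymes and by Agxt2. None of 6 measured genes of this list passed the unadjusted 0.05. Their median was 0.10, with Agxt2 at 0.27 ± 0.14 (SE), Prmt5 at 0.15, and Carm1 and Prmt6 at -0.25 and -0.18. No difference of this group was detectable.

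Among 11 genes of synthase binding and trafficking, 1 was lower and 1 higher past the unadjusted 0.05. Nostrin, which carries Nos3 from the membrane into vesicles, read 631, 929 and 544 under C-peptide and 931 and 1292 untreated, so the groups were separated only narrowly, and in the deposited intensities they overlapped. Its difference was -0.67 ± 0.25 (SE), with an adjusted p = 0.392 by limma. It ran from -0.92 to -0.44 with 1 array left out, and no gene of the list was lower past the unadjusted 0.05 without C-peptide animal 1, without animal 3 of that group or without untreated animal 2. Zdhhc21, which attaches palmitate to Nos3, was higher by 0.47 ± 0.16 (SE), with means of 229.98 and 162 and an adjusted p = 0.343 by limma, and no gene of the list was higher past 0.05 without untreated animal 1. Dynll1, a light chain that binds Nos1, was at -0.34 ± 0.15 (SE), and the chaperone Hsp90aa1 at -0.36 ± 0.19 (SE).

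Caveolae genes were 8, 3 of them lower past the unadjusted 0.05 and 4 above 0, with a median of -0.06. Cavin3 read 501, 768 and 515 under C-peptide and 1308 and 1364 untreated, far apart, with a difference of -1.17 ± 0.21 (SE) and an adjusted p = 0.126 by limma. Cavin2, at -0.83 ± 0.18 (SE), and Ehd2, at -0.48 ± 0.18 (SE), were the other 2. Ehd2 ran from -0.69 to -0.27 with 1 array left out, and 2 genes in place of 3 passed without C-peptide animal 1, without animal 3 of that group or without untreated animal 1. The coat genes Cav2 (0.04) and Cavin1 (0.02), named after their values were seen, were near 0. Both changed sign in the deposited and median-centred intensities and without C-peptide animal 1. The sign of Cav2 also changed without untreated animal 1, and that of Cavin1 without untreated animal 2 and with array weights. Pacsin2 had a difference of 0.12.

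Cyclic GMP signalling, downstream of nitric oxide, was measured with 12 genes and a median of -0.14. Pde2a, a phosphodiesterase that cyclic GMP itself stimulates, read 130, 205 and 155 under C-peptide and 516 and 384 untreated, with no overlap. Its difference of -1.38 ± 0.22 (SE) was the lowest of the 58 genes, with an adjusted p = 0.109 by limma. The guanylate cyclase subunits differed in sign. Gucy1a1 was at -0.45 ± 0.17 (SE) and Gucy1b1 at -0.39 ± 0.20 (SE), whereas Gucy1b2 was at 0.47 ± 0.18 (SE). Gucy1a1 and Gucy1b2 passed the unadjusted 0.05. Gucy1a2, named after its value was seen, was at -0.22 ± 0.18 (SE). Of all probe sets 39.5% were dimmer than Gucy1a1 and 43.3% dimmer than Gucy1b1, whose groups overlapped. The list had 1 gene lower in place of 2 without C-peptide animal 3 or untreated animal 2, and 0 higher in place of 1 when any array but that of C-peptide animal 1 was left out.

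Removal of nitric oxide and of nitrosothiols was covered by 5 genes with a median of 0.18. Txnrd1, a thioredoxin reductase, was higher by 0.65 ± 0.25 (SE) and Cyb5r3, the reductase that restores haem iron for nitric oxide scavenging, lower at -0.65 ± 0.24 (SE), both past the unadjusted 0.05 with an adjusted p = 0.406 and 0.390 by limma. Neither passed the unadjusted 0.05 without C-peptide animal 1, without animal 3 of that group or without untreated animal 1, and the higher call was also lost without untreated animal 2. Cyb5b was at 0.30 and the reductase Akr1a1 at 0.18. The values of Pde2a (-1.38), Cavin3 (-1.17), Cavin2 (-0.83) and Nostrin (-0.67) stood beside an endothelial mean difference of -1.07. Those of Cav1 (-0.47), Cav2 (0.04) and Cavin1 (0.02) lay nearer 0. The part of the endothelial markers in all these values was not tested.

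**Figure D4:**
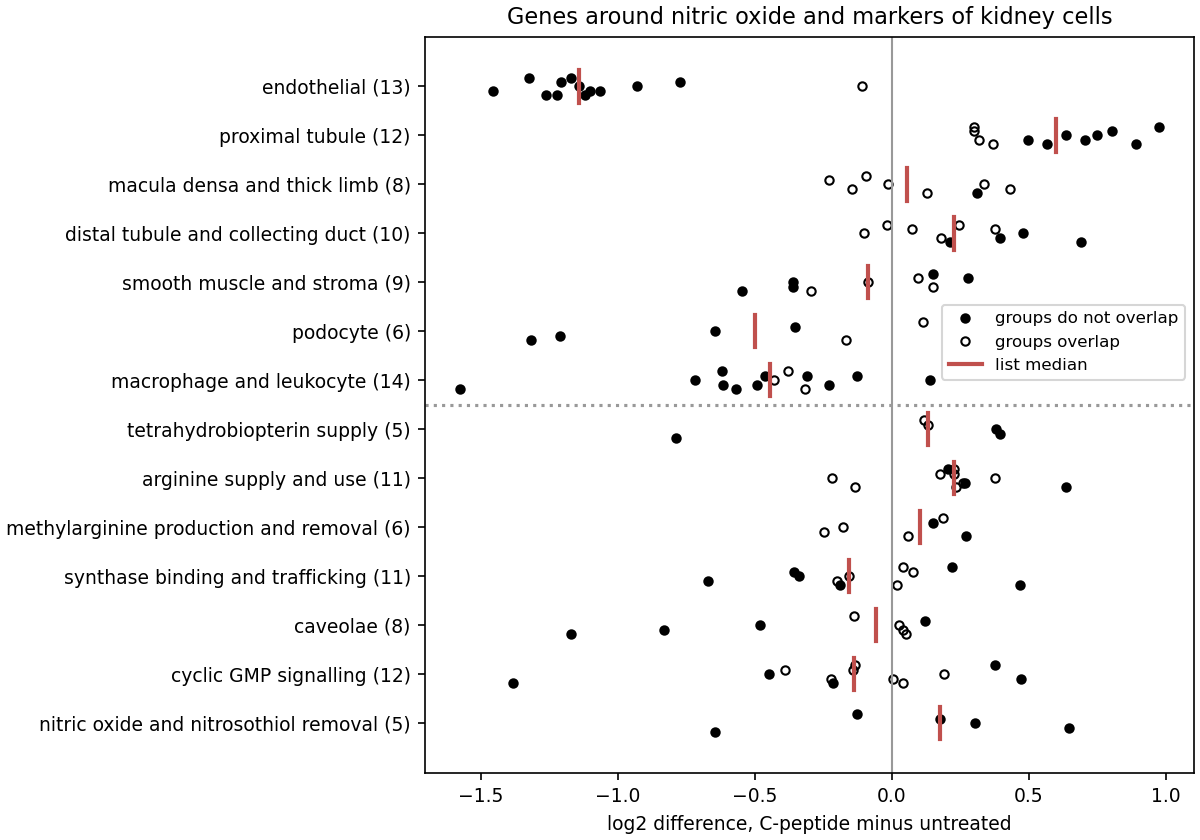
Log2 difference, C-peptide minus untreated, of each measured gene of the 7 cell type lists (above the dotted line) and 7 nitric oxide lists (below it), with the number of genes in brackets, filled points where the groups do not overlap and a red bar at the list median. Endothelial markers lie lowest, with a median of -1.14, proximal tubule markers highest, with a median of 0.60, and the medians of the nitric oxide lists lie between -0.16 and 0.23.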

How the data were processed

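Per the submitters' processing notes, array values were made with PLIER in Affymetrix Expression Console 1.1. The deposited table holds 1 linear intensity per probe set and array, with any normalisation not given in the sources used here. Deposited array medians ran from 60.1 to 95.9 and 550 values were 0, so the intensities were quantile normalised, 16 was added and log2 taken. The groups were compared over all 29215 probe sets with limma 3.58.1 in R 4.3.3 (lmFit and eBayes, two-sided, Benjamini-Hochberg over all probe sets), tested on simulated data. For a single value an exact permutation test was used, which with 3 arrays against 2 cannot reach 0.05. The labels name an animal for each array; should arrays share a source, the p-values measure only the spread between these samples, and the number of arrays limits the precision.

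Symbols came from the platform annotation, updated through RefSeq (GRCr8): 15310 probe sets had 1 symbol (15279 found in RefSeq), 323 several and 13582 none; a gene is its brightest probe set. The members and lists were chosen with earlier results of these data known. The text names the 7 members, up to 4 genes with the smallest p per pathway list, the lowest and highest per cell type list, and the nearest patterns. RefSeq promoters were matched for 4 of the 7 genes. In all, 15 alternatives were run.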

Additional observations from a re-analysis of the deposited data

How the results depend on the processing

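Differences as deposited are given here with the median of all probe sets in that fit, -0.13, taken off; before that they were 0.0047 for Nos1, -0.39 for Nos2, -1.26 for Nos3, -0.68 for Cav1, 0.042 for Ddah1, 0.072 for Ddah2 and 0.18 for Arg2. On this scale Nos3 was below 0 in all 15 alternatives, from -1.20 to -0.89, and no member changed sign in any setting run for it. With limma, Nos3 passed an adjusted p of 0.05 with a pseudocount of 64 (-0.94, adjusted p = 0.0462), only probe sets above the median intensity (-1.05, 0.0190), only 1-symbol probe sets (-1.05, 0.0183), a trended robust prior (-1.05, 0.0330) and averaging over each gene's probe sets (-1.05, 0.0179), each time as the 1 member to do so. It did not as deposited (-1.12, adjusted p = 0.0764), with arrays centred on their median (-1.09), with a pseudocount of 1 (-1.08), with array weights (-1.03) or with 1 array left out (-1.20 to -0.89, adjusted p = 0.107 to 0.777). Members past the unadjusted 0.05 were 1 as deposited and with centred arrays, and 1 to 3 with 1 C-peptide array left out. Members without overlap were 2 as deposited and 5 to 6 with 1 array left out. With fewer arrays groups separate more easily, and the share of all probe sets without overlap in these settings is not given here. Over all settings, on the same scale, Nos1 ranged from 0.06 to 0.17, Nos2 from -0.26 to -0.14, Cav1 from -0.64 to -0.26, Ddah1 from 0.05 to 0.42, Ddah2 from 0.21 to 0.38 and Arg2 from 0.28 to 0.43. Nos3 relative to the endothelial mean ranged from -0.04 to 0.14.

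Whether the animal numbers pair the arrays is not settled by the data: deviations from the group means correlated at -0.09 for animals 1 and -0.06 for animals 2, but the deviations of 2 untreated arrays mirror each other. The numbers were therefore not used to pair. With the animal number as a replicate block, Nos3 was at -0.99 (adjusted p = 0.229), 1 member passed the unadjusted 0.05 and 0 probe sets the adjusted one.

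Of all 29215 probe sets, 52 passed the adjusted threshold as deposited, 29 centred, 1 with a pseudocount of 1, 118 with 64 and 207 with the trended prior. With 1 C-peptide array left out 0 passed. In smaller sets, 386 of the probe sets above the median intensity, 329 of 15310 with 1 symbol and 334 of 14506 gene means passed. At the unadjusted 0.05 there were 2058 as deposited and 1765 to 3483 with 1 array left out, the lowest without untreated animal 1. Of the 58 pathway genes 1 passed the adjusted threshold as deposited and with a pseudocount of 64, 3 of 46 above the median intensity, 4 with 1 symbol or gene means and 2 with the trended prior. List medians that moved, with bright meaning probe sets above the median intensity: smooth muscle and stroma 0.0023 centred, -0.19 bright and -0.18 to 0.0061 with 1 array left out; podocyte -1.21 bright and -0.67 to -0.32; macrophage and leukocyte -0.61 to -0.38; tetrahydrobiopterin 0.38 bright and 0.064 to 0.26; methylarginine 0.0054 as deposited, 0.040 centred, 0.15 bright and -0.033 to 0.15; synthase binding -0.080 as deposited, -0.045 centred and -0.17 to -0.027; caveolae -0.23 bright, -0.11 with the replicate block and -0.15 to -0.021; nitric oxide removal 0.26 centred and 0.13 to 0.25. Signs changed for Slc4a1 (0.058 with array weights, -0.33 to 0.24 with 1 array left out), Plvap (0.0078 with the replicate block, -0.24 to 0.015), Cav2 (-0.064 as deposited, -0.0291 centred, -0.091 to 0.17) and Cavin1 (-0.059 as deposited, -0.024 centred, -0.0112 with array weights, -0.068 to 0.12). The cause was not tested. Gch1, a dim probe set, was at -1.04 with a pseudocount of 1 and -0.45 with 64.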
